A study of Rattus norvegicus with 30 samples.

Results

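The genes of fatty acid synthesis and desaturation were followed across a study of primary rat hippocampal neurons treated with fumarates or a cannabinoid. The 10 genes were picked by symbol among the 21993 genes of the deposited tables: *Srebf1*, *Fasn*, *Acaca*, *Acly*, *Acss2*, *Scd*, *Fads1*, *Fads2*, *Elovl6* and *Pnpla3*. They were chosen with earlier results of these data known, so that their shares of calls are not those of an independent list. Wild-type neurons from Wistar rats at embryonic day 18 were grown for 7 days and then exposed for 4 or 24 h to dimethyl fumarate (DMF, 30 µM), monomethyl fumarate (MMF, 30 µM) or cannabidiol (CBD, 6 µM). DMF and MMF are esters of fumaric acid that differ by 1 methyl ester group, whereas CBD is a plant cannabinoid. The control cells received the vehicle, which was DMSO for DMF and MMF and ethanol (EtOH) for CBD, and every group, treated or control, held 0.2% of its vehicle. Each of the 10 groups had 3 poly(A) RNA libraries numbered 1 to 3, and the labels state that the experiments were repeated 3 times.

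Cells build fatty acids from citrate and acetate. *Acly* (ATP citrate lyase) and *Acss2* (acetyl-CoA synthetase) make cytosolic acetyl-CoA, *Acaca* (acetyl-CoA carboxylase) makes malonyl-CoA, and *Fasn* (fatty acid synthase) joins these units into palmitate. *Elovl6* lengthens palmitate, *Scd* (stearoyl-CoA desaturase) puts the first double bond into saturated chains, and *Fads1* and *Fads2* are the desaturases that make long polyunsaturated chains such as arachidonic and docosahexaenoic acid, in which neuronal membranes are rich. *Srebf1* encodes SREBP-1, a transcription factor that is held in the endoplasmic reticulum, is cut free in the Golgi and then switches on these genes, and *Pnpla3* (a lipid droplet acylhydrolase) is one of its known targets. The related factor SREBP-2, encoded by *Srebf2*, acts mainly on the genes of cholesterol synthesis.

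After 24 h with DMF, 5 of the 10 genes passed the main test as higher, where 1.88% of all genes did. *Srebf1* was 2.32-fold and *Scd* 1.94-fold above DMSO. For *Acaca* and *Pnpla3* the result was lost when any 1 of several libraries was left out. *Acly* was lower than with DMSO but did not pass the main test. After 4 h, the level of *Srebf1* with DMF was 0.614 of that with DMSO, a difference that did not pass the main test. It passed when libraries of the same number were paired, and in another test, DESeq2, without pairing. None of the 10 genes passed the test with MMF at either time, where 0.0% of all genes passed it at 4 h and 0.00707% at 24 h. With CBD at 24 h none of the 10 passed it either, where 0.114% of all genes did. *Scd* and *Acss2* were then below EtOH for all 3 replicate numbers, as were 8 of the 10 genes in all.

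Each library gave between 15108132 and 25367834 reads on genes, with a median of 20088658. A normalized count is the number of reads on a gene divided by a size factor of the library, which the authors computed within the 6 libraries of each table, so that the values of 1 library differ slightly between tables. The scale does not correct for gene length, and levels are therefore compared within a gene only. The rarest of the 10 genes, *Pnpla3*, had between 333 and 905 reads per library, and *Fasn* had between 8870 and 37772. Groups were compared with limma on the log2 of the normalized count with a pseudocount of 1, the p-values of all tested genes were corrected together by the Benjamini-Hochberg method, and a gene was called at an adjusted p under 0.05. All p-values below are adjusted p-values of this test unless they are named otherwise, and log2FC is the difference of the log2 means. The test was also run with the replicate number as a block, which compares libraries of the same number. That libraries of the same number come from the same experiment was inferred, and is assumed wherever experiments are named below. Markers of neurons were present in every library, with summed levels of 3668 to 5272 CPM (reads scaled to the TMM-normalized library size) for the 10 genes of the list. The cultures were not purely neuronal, since *Gfap*, the astrocyte filament gene, ranged from 515 to 2722 CPM, whereas the 6 microglial genes together reached at most 6.63 CPM, and *Cx3cr1*, *P2ry12*, *Itgam* and *Tmem119* were at 0 in some libraries. In such bulk RNA, a change in the number of cells of a type and a change of RNA per cell cannot be told apart.

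The promoters of 7 of the 10 genes were listed in RefSeq (build GRCr8), with 8 start sites. *Fasn*, *Acaca* and *Elovl6* had no entry. Within the 250 bases before the start, 6 of the 8 held CCAAT on either strand, the box that the trimeric factor NF-Y reads and that often lies beside SREBP sites, against 34.0% of all 33469 promoters of the same length. The Sp1 box GGGCGG was in 7 of the 8 (30.5% of all promoters). The sterol response element TCACNCCAC and the E-box TCACGTGA had 0 matches in the 8 windows, against 0.974% and 0.657% of all promoters. At such low shares, 0 matches in 8 windows cannot tell these promoters from others. Only these exact strings were searched, so that variant sites would be missed. TGACNNNGC, the core of the antioxidant response element, was found in *Acss2* and *Scd* (10.1% of all promoters). The *Srebf1* windows are shown because this gene had the largest fold change of the 10 with DMF at 24 h, *Pnpla3* because it holds 2 CCAAT boxes as the second *Srebf1* start does, and *Scd*, chosen after its values were seen, because it was called with them and holds no CCAAT. The strand is minus for *Srebf1* and *Scd* and plus for *Pnpla3*, the sequences run 5′ to 3′ along the gene, and capitals mark CCAAT or its reverse ATTGG.

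*Srebf1*, first start, chr10:45529165-45529414: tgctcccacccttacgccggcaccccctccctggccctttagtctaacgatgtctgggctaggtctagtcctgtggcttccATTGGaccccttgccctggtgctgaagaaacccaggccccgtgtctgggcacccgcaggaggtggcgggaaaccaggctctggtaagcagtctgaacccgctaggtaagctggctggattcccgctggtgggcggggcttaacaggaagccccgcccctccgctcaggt
*Srebf1*, second start, chr10:45519011-45519260: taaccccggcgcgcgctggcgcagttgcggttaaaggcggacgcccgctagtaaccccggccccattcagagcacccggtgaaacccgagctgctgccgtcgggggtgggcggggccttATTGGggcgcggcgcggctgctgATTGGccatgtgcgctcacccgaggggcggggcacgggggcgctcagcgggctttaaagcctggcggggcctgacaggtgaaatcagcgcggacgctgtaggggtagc
*Pnpla3*, chr7:117173278-117173527: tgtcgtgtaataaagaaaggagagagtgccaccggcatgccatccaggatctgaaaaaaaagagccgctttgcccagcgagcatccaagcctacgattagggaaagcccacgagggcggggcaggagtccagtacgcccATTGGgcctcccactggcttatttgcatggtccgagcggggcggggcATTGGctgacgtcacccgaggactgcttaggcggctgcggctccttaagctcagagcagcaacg
*Scd*, chr1:253231732-253231981: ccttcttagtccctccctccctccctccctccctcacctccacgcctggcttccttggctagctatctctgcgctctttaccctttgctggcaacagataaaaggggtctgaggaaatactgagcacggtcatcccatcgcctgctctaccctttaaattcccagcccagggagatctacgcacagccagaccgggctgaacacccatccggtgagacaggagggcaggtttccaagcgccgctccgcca

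In the authors' build, mRatBN7.2, *Srebf1* spans 45007637 to 45029650 on chromosome 10, which also carries *Acaca*, *Acly* and *Fasn*. The count of *Srebf1* covers the whole gene, so that transcripts from its 2 starts cannot be told apart. *Fads2* (206708783 to 206748789) and *Fads1* (206827765 to 206842734) lie side by side on chromosome 1, where *Scd* spans 243269747 to 243282562.

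Whether DMF changed the genes was asked at 24 h against DMSO. The regulator *Srebf1* had 4154, 6029 and 6038 normalized counts with DMF and 2282, 2710 and 1948 with DMSO in replicates 1 to 3. The lowest DMF library lay above the highest DMSO library. The log2FC was 1.22 ± 0.160 (SE, n = 3 per group; limma, adjusted p = 0.00476). *Fasn*, the synthase, had 26927, 32910 and 28657 normalized counts with DMF and 16736, 16696 and 16118 with DMSO. The groups were far apart, with a log2FC of 0.83 ± 0.0878 (limma, adjusted p = 0.00164). *Scd* had 10989, 12457 and 11763 normalized counts with DMF and 5325, 6655 and 6245 with DMSO, again without overlap (log2FC 0.95 ± 0.0919; limma, adjusted p = 0.00116).

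**Figure D1:**
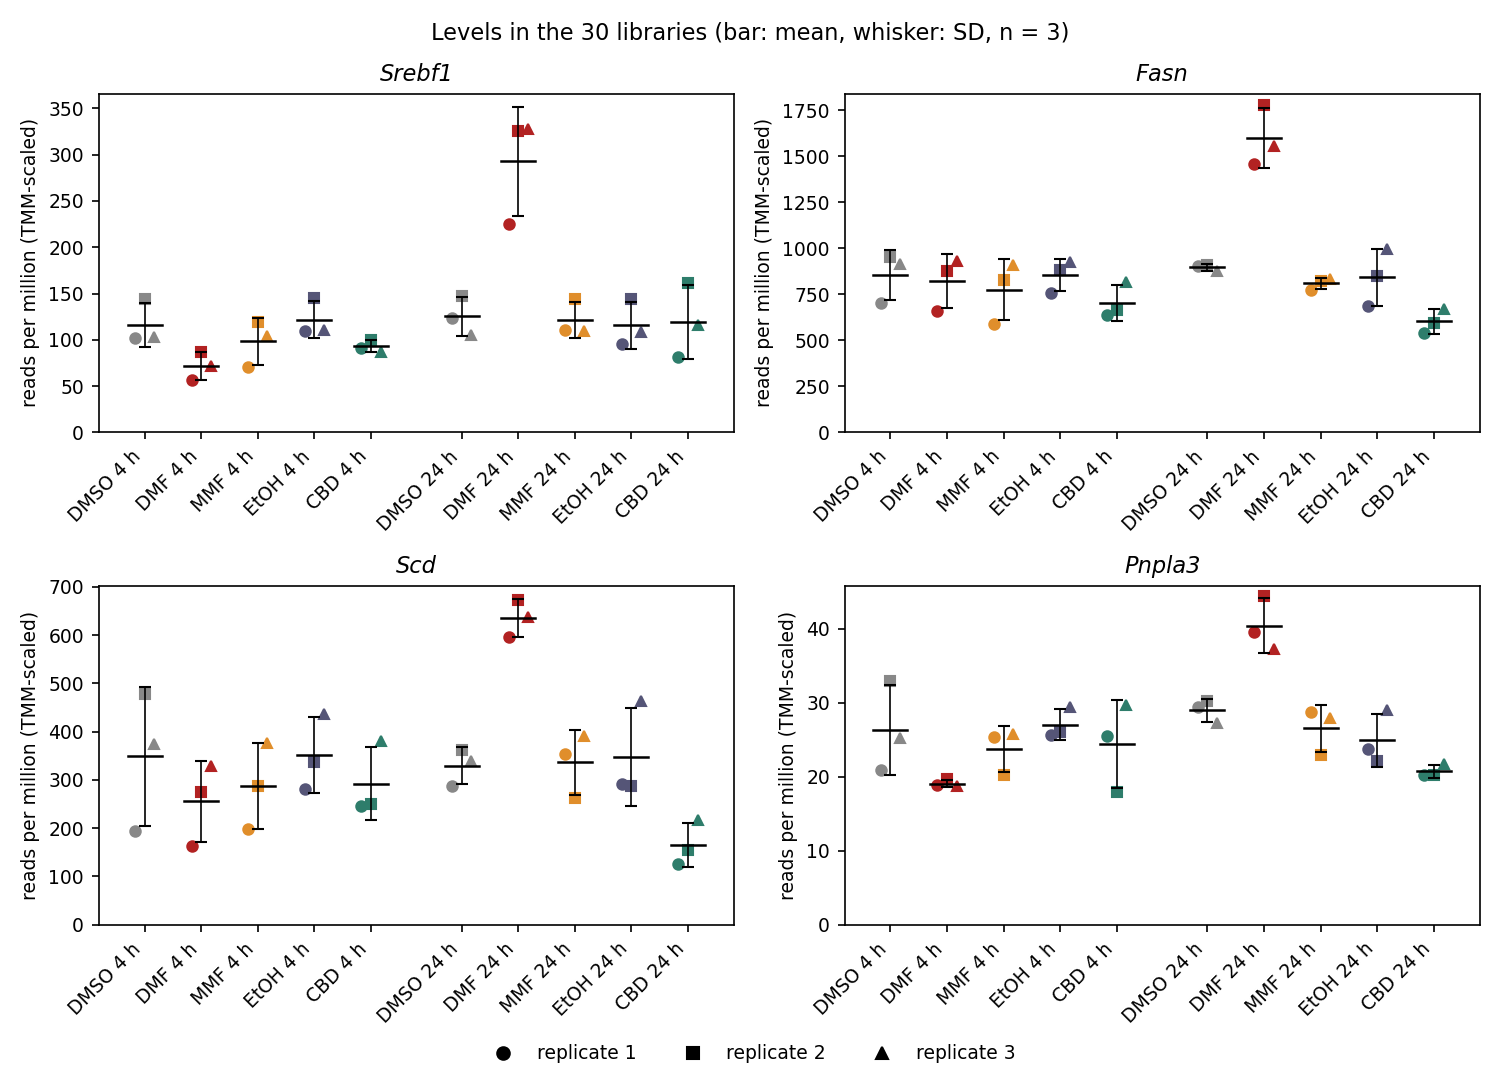
Levels of *Srebf1*, *Fasn*, *Scd* and *Pnpla3* in CPM (vertical axis, linear from 0) in the 10 groups of 3 libraries; symbols mark the replicate number, bars the mean and whiskers the SD. The 3 libraries with DMF at 24 h stand above all other libraries for each of the 4 genes, *Srebf1* and *Pnpla3* are lowest with DMF at 4 h, and *Scd* and *Fasn* are lowest with CBD at 24 h.

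*Acaca* and *Pnpla3* rose less. *Acaca*, which supplies malonyl-CoA, went from 5132 ± 86.7 (SD) to 6419 ± 229 normalized counts, or 1.25-fold (limma, adjusted p = 0.0202). *Pnpla3* had 730, 824 and 687 normalized counts with DMF and 546, 555 and 502 with DMSO, or 1.39-fold (limma, adjusted p = 0.0232). Thus 5 of the 10 genes were called, all higher, where 3.97% of the 13967 genes tested were called and 1.88% were called higher. For 6 of the 10 genes all DMF libraries lay on 1 side of all DMSO libraries, against 22.8% of all genes. The median log2FC of the 10 genes was 0.30, beside -0.01 for all genes.

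Not every step of the pathway moved up. *Acly*, which makes acetyl-CoA from citrate, had 7392, 7796 and 9018 normalized counts with DMF and 10055, 10598 and 9780 with DMSO. All 3 DMF libraries were below all DMSO libraries, and the log2FC was -0.33 (limma, adjusted p = 0.0668). With the replicate block *Acly* was called lower (limma, adjusted p = 0.00992), and *Fads1* was called higher at a log2FC of 0.28 (limma, adjusted p = 0.317 without and 0.00946 with the block). *Acss2*, *Fads2* and *Elovl6* had log2FCs of 0.15, 0.07 and 0.05 and were not called in either fit, with 95% intervals of -0.12 to 0.43, -0.17 to 0.31 and -0.11 to 0.20. With the block, 7 of the 10 genes were called (6 higher, 1 lower), where 12.9% of all genes were called, 5.81% higher and 7.1% lower. The call of *Acaca* was lost when any 1 DMSO library or the second DMF library was left out, and that of *Pnpla3* without any library but replicate 3 of DMF, with adjusted p-values of up to 0.122 and 0.106 (limma). With the spread taken from all 30 libraries *Scd*, *Acaca* and *Pnpla3* had adjusted p-values of 0.0720, 0.0740 and 0.0797 (limma).

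At 4 h the picture differed. *Srebf1* had 1127, 1742 and 1433 normalized counts with DMF and 2047, 2868 and 2075 with DMSO. Every DMF library was below every DMSO library, and the log2FC was -0.70 ± 0.178 (n = 3 per group; limma, adjusted p = 0.0694). With the replicate block the same difference had an adjusted p of 2.69e-06 (limma), and DESeq2 called it without a block (adjusted p = 0.00381). *Pnpla3* had 381 ± 9.11 (SD) normalized counts with DMF, and 419, 656 and 507 with DMSO, with a log2FC of -0.44 (limma, adjusted p = 0.157 without and 0.00587 with the block). The DMF libraries lay within a narrow band, whereas the DMSO libraries were widely spread. *Scd* had 3257, 5491 and 6579 normalized counts with DMF and 3878, 9527 and 7540 with DMSO, so that the groups overlapped, but each DMF library was below the DMSO library of its number (limma, adjusted p = 0.579 without and 0.00214 with the block).

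In all, limma called 0 of the 10 genes at 4 h without the block, where it called 3.41% of the 14208 genes tested. At an unadjusted p under 0.05 there were 2 (*Srebf1* and *Pnpla3*), DESeq2 called 1 and edgeR's quasi-likelihood test 0. With the block, 3 were lower (*Srebf1*, *Scd* and *Pnpla3*), where 23.0% of all genes were called and 11.5% lower. All DMF libraries lay below all DMSO libraries for 2 of the 10 genes, and the groups were apart in either direction for 26.3% of all genes. *Fasn* had a log2FC of -0.06 at 4 h and a 95% interval of -0.44 to 0.31, and *Acaca* had 0.13 with an interval of -0.11 to 0.37.

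**Figure D2:**
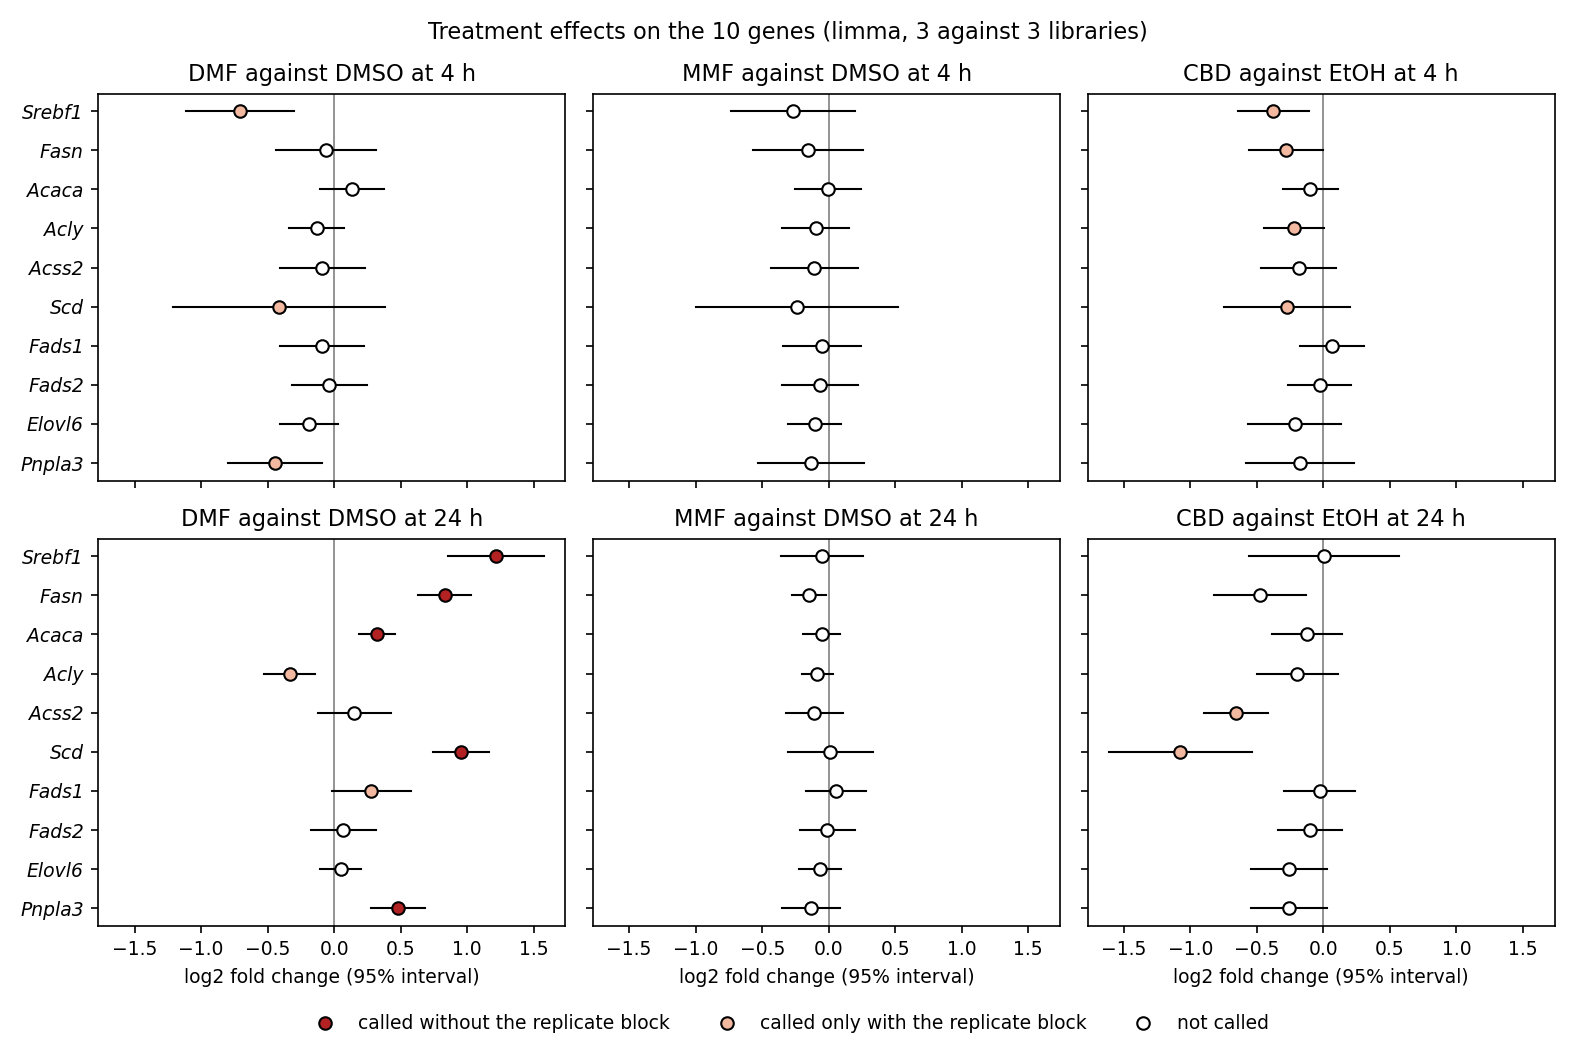
Log2FC of the 10 genes (rows) in the 6 comparisons of a drug with its vehicle (panels), with 95% intervals of limma from 3 against 3 libraries; dark points passed an adjusted p under 0.05 without the replicate block, pale points only with it and white points in neither fit. Dark points appear only in the panel of DMF at 24 h, where 5 genes are higher, and the panels of MMF hold white points only.

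The difference between the DMF effects at 24 and 4 h was tested itself, as the interaction of drug and time in 12 libraries. It was 1.92 ± 0.269 (SE) on the log2 scale for *Srebf1* (limma, adjusted p = 0.00251), 0.89 ± 0.196 for *Fasn* (adjusted p = 0.0243) and 0.92 ± 0.186 for *Pnpla3* (adjusted p = 0.0165). For *Scd* it was as large, 1.37 ± 0.404, with a wider spread (limma, adjusted p = 0.0797 without and 0.00178 with the block). Thus 3 of the 10 genes were called, all higher, where 4.12% of the 14432 genes tested were called and 1.79% higher. With the block there were 5, with *Scd* and *Fads1* (log2 difference 0.37; limma, adjusted p = 0.00965) besides these 3, where 13.2% of all genes were called and 6.24% higher. Without replicate 2 of DMF at 24 h, only *Srebf1* remained (limma, adjusted p = 0.0687 for *Fasn* and 0.0506 for *Pnpla3*), and *Fasn* also missed the threshold when any 1 DMSO library of 24 h, or replicate 2 or 3 of DMSO at 4 h, was left out. The *Srebf1* call held whichever of the 12 libraries was left out.

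The same shift was seen within DMF-treated cells, in a comparison that shares these DMF libraries. *Srebf1* had 1160, 1790 and 1467 normalized counts at 4 h and 4622, 6697 and 6733 at 24 h. The rise was seen in each experiment, and the mean was 4.09-fold (limma, adjusted p = 0.000485). *Pnpla3* went from 387, 403 and 385 to 812, 915 and 766 normalized counts (2.11-fold; limma, adjusted p = 0.000464). *Scd* and *Fasn* rose 2.59-fold and 1.96-fold (limma, adjusted p = 0.00541 and 0.00465). These 4 genes were called where 15.5% of the 14283 genes tested were called and 7.59% higher. With the block 9 of the 10 rose, where 32.3% of all genes were called and 16.2% higher. *Acly* was the exception, with a log2FC of -0.16 (limma, adjusted p = 0.0792 with the block).

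In DMSO alone none of the genes passed the test. Of the 10 genes, limma called 0 between 24 and 4 h with DMSO, with or without the block, and 0 had an unadjusted p under 0.05, and DESeq2 and edgeR called 0 as well. It called 0.0% of all genes without and 1.47% with the block. *Srebf1* had 2221, 2639 and 1905 normalized counts at 24 h and 1844, 2575 and 1860 at 4 h. The log2FC was 0.11 with a 95% interval of -0.22 to 0.45. For *Scd* the interval was wide, from -0.59 to 0.61, because the DMSO libraries at 4 h held 3494, 8554 and 6756 normalized counts.

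MMF, set against the same DMSO libraries as DMF, gave no call among the 10 genes. At 4 h, the log2FCs ran from -0.27 for *Srebf1* to -0.01 for *Acaca*, and at 24 h from -0.15 for *Fasn* to 0.05 for *Fads1*. *Srebf1* at 24 h had 2145, 2787 and 2113 normalized counts with MMF and 2401, 2847 and 2046 with DMSO. These values overlapped, and the 95% interval of the log2FC was -0.36 to 0.26. The interval of *Scd* at 24 h was -0.31 to 0.33. Limma called 0 of the 10 at either time with or without the block, where it called 0.0% of all genes at 4 h and 0.00707% at 24 h, and 0.0% and 1.38% with the block. At an unadjusted p under 0.05 there were 0 at 4 h and 1 at 24 h (*Fasn*, lower in all 3 experiments, 15004, 15885 and 16015 against 17607, 17538 and 16929 normalized counts), and DESeq2 and edgeR called 0.

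DMF and MMF, which were given at the same dose and times, were also compared with each other, as 1 pair of compounds at 2 times, with the DMF and MMF libraries already used above. At 24 h *Srebf1* had 4592, 6664 and 6664 normalized counts with DMF and 2262, 2928 and 2224 with MMF, a 2.40-fold difference (log2FC 1.26 ± 0.159; limma, adjusted p = 0.00413). The lowest DMF library was above the highest MMF library. *Fasn* was 1.97-fold and *Scd* 1.92-fold higher with DMF than with MMF (limma, adjusted p = 0.000901 and 0.00793). For *Pnpla3* and *Acaca* the log2FC of DMF over MMF was 0.61 and 0.37, with adjusted p-values of 0.0225 and 0.0287 (limma). These 5 genes were called where 3.56% of the 14233 genes tested were called and 1.43% higher. With the block *Fads1* was added as higher and *Acly* as lower with DMF (limma, adjusted p = 0.0321 and 0.0308), so that 7 of the 10 were called where 12.2% of all genes were (4.95% higher and 7.28% lower). *Acaca* and *Pnpla3* each missed the threshold without replicate 1 or 2 of either drug, and *Scd* with the spread of all 30 libraries (limma, adjusted p = 0.0735). *Acss2*, *Fads2* and *Elovl6* were not called in either fit, with 95% intervals of 0.01 to 0.50, -0.16 to 0.32 and -0.07 to 0.30 on the log2 scale.

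At 4 h, limma called 0 of the 10 genes between DMF and MMF (1.61% of the 14200 genes tested), with 1 at an unadjusted p under 0.05 (*Pnpla3*) and 0 called by DESeq2 and edgeR. With the block, *Srebf1*, *Scd* and *Pnpla3* were lower with DMF, at log2FCs of -0.44, -0.18 and -0.31 (limma, adjusted p = 7.03e-05, 0.0182 and 0.0244), where 23.6% of all genes were called and 11.6% lower. *Srebf1* had 1116, 1723 and 1416 normalized counts with DMF and 1389, 2366 and 2081 with MMF. The groups overlapped, but DMF was lower in each of the 3 experiments. For *Fasn* the 95% interval of the difference was -0.35 to 0.53.

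With CBD at 24 h the values of *Scd* and *Acss2* were below those of the vehicle. *Scd* had 2373, 2909 and 4080 normalized counts with CBD and 5494, 5462 and 8764 with EtOH. All CBD libraries were below all EtOH libraries, and the level with CBD was 0.475 of that with EtOH (log2FC -1.07 ± 0.234; limma, adjusted p = 0.259 without and 0.00318 with the block). *Acss2*, which makes acetyl-CoA from acetate, had 1332, 1298 and 1499 normalized counts with CBD and 2002, 2077 and 2454 with EtOH. The groups again did not overlap, at a log2FC of -0.66 ± 0.104 (limma, adjusted p = 0.110 without and 0.0115 with the block). DESeq2 called both without a block (adjusted p = 0.000436 for *Scd* and 0.000111 for *Acss2*), as did limma with the spread of all 30 libraries (adjusted p = 0.0498 and 0.00963).

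*Fasn* at 24 h had 10162, 11278 and 12693 normalized counts with CBD and 12957, 16105 and 18772 with EtOH. It was lower in each experiment, at a log2FC of -0.48, and missed the threshold in both fits (limma, adjusted p = 0.406 without and 0.0682 with the block). *Srebf1* had 1527, 3048 and 2182 normalized counts with CBD and 1797, 2738 and 2049 with EtOH, with a log2FC of 0.00 and a 95% interval of -0.56 to 0.57. Limma called 0 of the 10 genes without the block (0.114% of the 14079 genes tested), with 3 at an unadjusted p under 0.05 (*Fasn*, *Acss2* and *Scd*), DESeq2 called 2 and edgeR 0. With the block limma called 2, both lower, where 0.504% of all genes were called and 0.398% lower. All CBD libraries lay below all EtOH libraries for 4 of the 10 genes (*Fasn*, *Acss2*, *Scd* and *Pnpla3*), and the groups were apart in either direction for 15.9% of all genes. The neuronal markers *Gad1* and *Gad2*, enzymes of GABA synthesis, were also lower with CBD at 24 h (log2FC -0.81 and -0.84; limma, adjusted p = 0.0134 and 0.0104), and the summed neuronal markers ranged from 4092 to 4353 CPM with CBD and from 4476 to 5272 with EtOH. Their part in the lower *Scd* and *Acss2* was not tested.

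**Figure D3:**
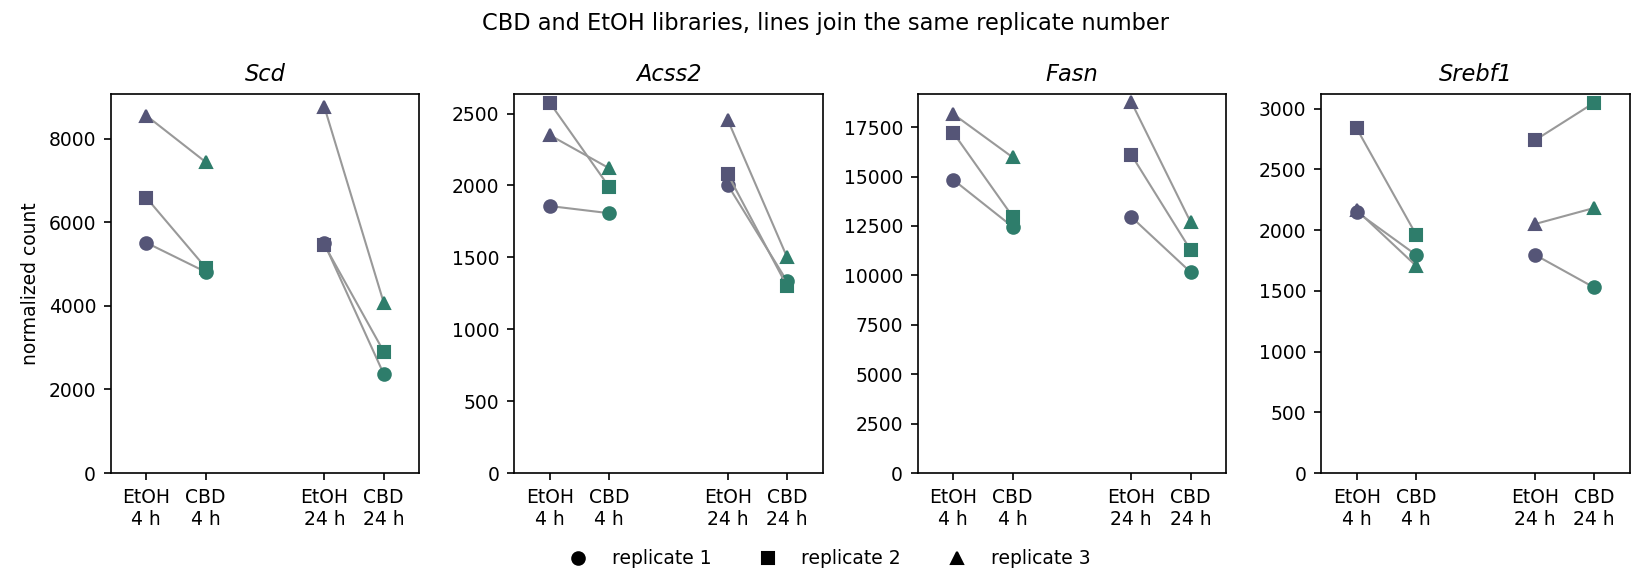
Normalized counts (vertical axes, linear from 0) of *Scd*, *Acss2*, *Fasn* and *Srebf1* in the EtOH and CBD libraries at 4 and 24 h, with lines between libraries of the same replicate number. All 3 lines fall steeply for *Scd* and *Acss2* at 24 h, whereas those of *Srebf1* fall at 4 h and go both ways at 24 h.

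At 4 h with CBD, *Srebf1* had 1795, 1963 and 1706 normalized counts against 2149, 2836 and 2164 with EtOH. The groups did not overlap, and the log2FC was -0.38 (limma, adjusted p = 1.00 without and 0.000396 with the block). With the block *Fasn*, *Scd* and *Acly* were lower as well, at log2FCs of -0.28, -0.27 and -0.22 (limma, adjusted p = 0.00400, 0.00406 and 0.0251), so that 4 of the 10 genes fell where 2.33% of all genes were called and 0.669% lower. Without the block limma called 0 of the 10 (0.00705% of the 14193 genes tested), with 2 at an unadjusted p under 0.05 (*Srebf1* and *Fasn*), and DESeq2 and edgeR called 0. The CBD effects at 24 and 4 h were compared in 1 further test. *Scd* was lower by a further 0.80 at 24 h on the log2 scale and was the 1 member called with the block (limma, adjusted p = 0.999 without and 0.0223 with the block). Limma called 0.0% of the 14503 genes without the block and 0.0552% with it (0.0483% lower), and 2 of the 10 genes (*Acss2* and *Scd*) had an unadjusted p under 0.05 while DESeq2 and edgeR called 0.

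Across the 10 groups, each gene's level was also set out in CPM. *Srebf1* was highest with DMF at 24 h (293 ± 58.7, SD, n = 3) and lowest with DMF at 4 h (71.7 ± 15.4). The 8 groups between these had means from 92.9 to 125 CPM, and their neighbours in the order overlapped. For *Scd* the order ran from 635 ± 39.0 with DMF at 24 h to 165 ± 46.1 with CBD at 24 h, and for *Fasn* from 1597 ± 164 to 602 ± 66.7 in the same 2 groups. For *Srebf1*, *Fasn*, *Acaca*, *Scd* and *Pnpla3*, the top group, DMF at 24 h, stood apart from the next without overlap. For *Acly* the group with DMF at 24 h had the lowest mean (437 ± 46.4 CPM) and that with DMSO at 24 h the highest (550 ± 24.2 CPM). *Elovl6* and *Fads2* were the most even, with the highest group mean 1.23 and 1.24 times the lowest.

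Other genes of the pathway were counted in the same comparisons. Of 23 further genes of fatty acid synthesis, elongation and desaturation that were tested, 2 rose with DMF at 24 h and 0 fell (limma; 3 higher and 2 lower with the block), where 1.88% of all genes were higher (5.81% higher and 7.1% lower with the block). They were *Me1*, the malic enzyme that supplies NADPH (3102 ± 523 against 1442 ± 232 normalized counts; log2FC 1.10; limma, adjusted p = 0.00406), and *Mid1ip1*, which activates acetyl-CoA carboxylase (2339 ± 395 against 1580 ± 167; log2FC 0.56; limma, adjusted p = 0.0454). The authors of the study list *Me1* among the genes of the antioxidant Nrf2 pathway that were higher with DMF at 24 h. *Scd2*, the more brain-specific desaturase and a close copy of *Scd*, had 112472 ± 15960 against 98580 ± 11555 normalized counts. Its log2FC was 0.19 (limma, adjusted p = 0.552), and how reads shared by such copies were counted is not given in the sources used here. *Thrsp*, a lipogenic gene, had 699, 988 and 219 normalized counts with DMF at 24 h and 218, 366 and 237 with DMSO, with a log2FC of 1.00 (limma, adjusted p = 0.321 without and 0.0332 with the block). At 4 h, 0 of 24 were called with DMF (limma; 2 higher and 3 lower with the block), where 3.41% of all genes were called (23.0% with the block). Within DMF-treated cells, 3 of 24 were higher at 24 h than at 4 h and 1 was lower, where 15.5% of all genes were called and 7.59% higher. The block gave 5 higher and 2 lower, where 32.3% of all genes were called. *Thrsp*, *Mid1ip1* and *Me1* rose 4.13-fold, 2.29-fold and 1.76-fold (limma, adjusted p = 0.0204, 0.00138 and 0.00806), and *Elovl1*, an elongase of very long chains, had a log2FC of -0.31 (limma, adjusted p = 0.0459). Of 21 genes of fatty acid activation and glycerolipid synthesis, *Lpin1*, a phosphatidate phosphatase, rose at 24 h (log2FC 0.52; limma, adjusted p = 0.0246) and 0 fell without the block. The block gave 2 higher and 2 lower. Over all genes, 3.97% were called without and 12.9% with the block. Of 17 genes of fatty acid oxidation, limma called 0 with DMF at 24 h and 0 at 4 h (1 and 4 with the block). Over all genes, 12.9% at 24 h and 23.0% at 4 h were called with the block.

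Among 17 regulators of SREBP and lipogenesis, 2 fell with DMF at 4 h (limma; 2 higher and 3 lower with the block). Over all genes, 3.41% were called without and 23.0% with the block. *Nfya*, the DNA-binding subunit of NF-Y, had 756, 675 and 636 normalized counts with DMF and 1576, 1785 and 1848 with DMSO (log2FC -1.33; limma, adjusted p = 0.00308), and *Mbtps1*, the protease that makes the first cut in SREBP, had a log2FC of -0.59 (limma, adjusted p = 0.0133). At 24 h *Nfya* was back at the level of DMSO, with 1505, 1504 and 1772 against 1566, 1644 and 1704 normalized counts (log2FC -0.04, 95% interval -0.22 to 0.14). *Lpin1*, which stands in both lists, was the only regulator called at 24 h without the block (3 higher and 1 lower with it). *Insig1*, which holds SREBP in the endoplasmic reticulum and is itself a target, had log2FCs of -0.56 at 4 h and 0.44 at 24 h (limma, adjusted p = 0.0836 and 0.0849, and 4.94e-05 and 0.00623 with the block), and its DMF effect differed between the times by 1.00 (limma, adjusted p = 0.0205). For *Srebf2* the log2FC was -0.13 at 4 h and -0.30 at 24 h (adjusted p = 0.529 and 0.104 by limma, and 0.0144 with the block at 24 h). Of 7 LXR targets, 1 rose at 24 h, the cholesterol exporter *Abcg1* (log2FC 0.52; limma, adjusted p = 0.0374), and at 4 h limma called 0. The block gave 3 higher at 24 h, where 5.81% of all genes were higher. At 4 h it gave 1 lower, where 11.5% of all genes were lower.

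The sterol genes, which SREBP factors also control, went the other way at 24 h. Of 17 tested, 8 fell with DMF at 4 h and 9 at 24 h, 6 of them at both times (*Dhcr7*, *Fdft1*, *Idi1*, *Mvd*, *Sqle* and *Stard4*), and 0 rose at either time. Over all genes, 3.41% were called at 4 h and 3.97% at 24 h. The median log2FC of the 17 was -0.48 at 4 h and -0.42 at 24 h, beside -0.11 and 0.30 for the 10 fatty acid genes. *Hmgcs1*, which makes the precursor of mevalonate, fell by 0.63 at 24 h (limma, adjusted p = 0.00500). With the block, 15 of the 17 fell at 4 h and 13 at 24 h, and with CBD at 4 h 14 fell where limma called 0 without the block. The shares of all genes called lower with the block were 11.5%, 7.1% and 0.669% in these comparisons.

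**Figure D4:**
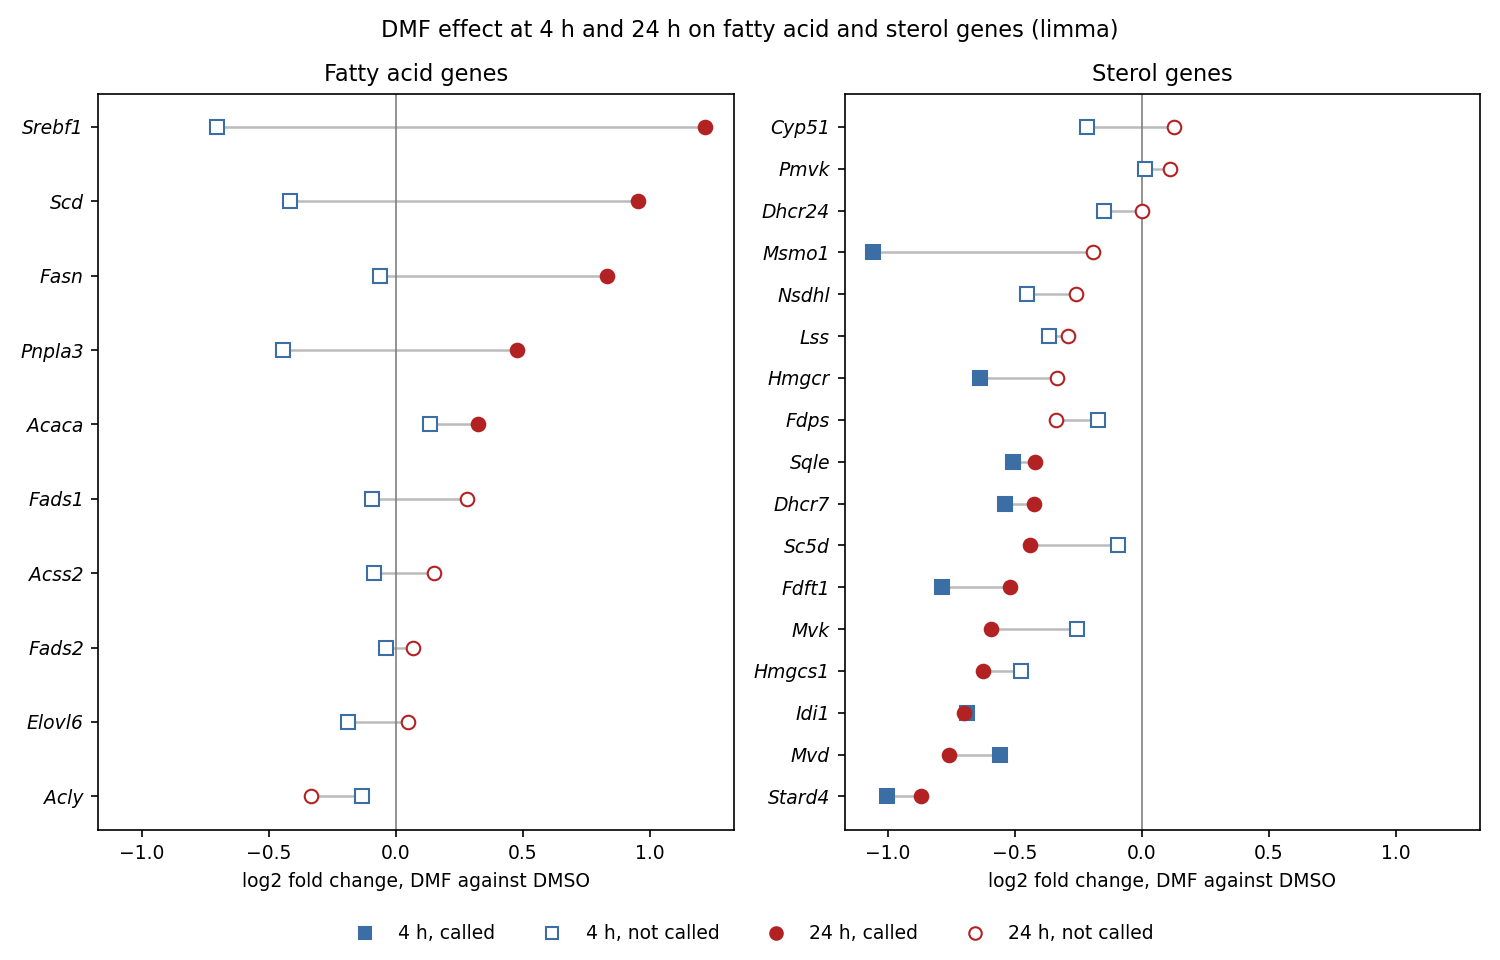
Log2FC with DMF against DMSO (horizontal axis) of the 10 fatty acid genes (left) and 17 sterol genes (right), at 4 h (squares) and 24 h (circles), with filled symbols for an adjusted p under 0.05 in limma without the block. At 24 h the filled circles lie right of 0 for 5 fatty acid genes and left of 0 for 9 sterol genes, and at 4 h the filled squares are 8 sterol genes, all left of 0.

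Markers of other cells moved at the same time. With DMF at 24 h, 5 of 5 genes of dividing cells fell, where 3.97% of all genes were called (12.9% with the block). Their summed level ranged from 72.8 to 87.9 CPM against 179 to 198 with DMSO. Of 7 genes of the oligodendrocyte lineage tested, 3 fell (*Pdgfra*, *Cspg4* and *Sox10*), and the summed list of 8 ranged from 587 to 742 CPM against 742 to 895. Of 7 astrocyte genes *Aldh1l1* fell (log2FC -0.65; limma, adjusted p = 0.0403), and with the block 1 was higher and 3 were lower. *Gfap* had a log2FC of 0.76 and *Aqp4*, the astrocyte water channel, one of -0.71 (limma, adjusted p = 0.163 and 0.213 without, 4.17e-05 and 0.00144 with the block). The summed astrocyte list ranged from 2853 to 4896 CPM with DMF and from 2492 to 4190 with DMSO. The summed neuronal list overlapped too, with 3798 to 4598 against 4582 to 4980 CPM (0 of 10 genes called by limma, 3 lower with the block). The part of these cells in the rise of *Srebf1*, *Fasn* and *Scd* was not tested. With DMF at 4 h, 0 of the 5 genes of dividing cells were called by limma (3 higher with the block), and among the 10 neuronal genes *Tubb3* fell (log2FC -0.64; limma, adjusted p = 0.0250). Like the lower *Srebf1*, *Scd* and *Pnpla3* at 4 h, further markers were called by limma only with the block. *Pdgfra*, *Sox10* and *Gfap* were lower, with log2FC of -0.64, -0.54 and -0.47 (limma with the block, adjusted p = 9.93e-06, 0.00141 and 0.000265). Of the 10 neuronal genes, *Rbfox3*, a neuronal nuclear protein gene, was higher (log2FC 0.23; limma with the block, adjusted p = 0.00606). *Gad1* was lower (log2FC -0.15; limma with the block, adjusted p = 0.0462). *Gfap* was the only astrocyte gene called with the block, and 3 of the 7 had a positive log2FC. Over all genes, 23.0% were called with the block. The summed lists overlapped, with 1863 to 3723 CPM with DMF against 2168 to 3797 with DMSO for astrocytes, and 476 to 649 against 569 to 643 for the oligodendrocyte lineage. The part of these cells in the 4 h difference was not tested. Of the 4 endothelial and fibroblast genes tested, limma called 0 against DMSO at either time (1 lower with the block at 4 h). Within DMF-treated cells, 24 h against 4 h, the 5 genes of dividing cells, *Cspg4* and *Col1a2*, a fibroblast collagen gene, were lower (log2FC -0.70 and -1.20 for *Cspg4* and *Col1a2*; limma, adjusted p = 0.00731 and 0.0488). *Gfap* and *Olig1*, an oligodendrocyte lineage factor, rose 2.48-fold and 1.54-fold (limma, adjusted p = 0.0268 and 0.0330). Over all genes, 15.5% were called between these times. The part of these cells in the rise between the times was not tested.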

How the data were processed

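RNA from 30 libraries was sequenced. Per the labels and the methods of the study, the authors used cutadapt 4.4 and Trimmomatic 0.39 for trimming and HISAT2 2.2.1 for alignment to mRatBN7.2, and counted genes of Ensembl release 111 with HTSeq 2.0.3. The strand setting of HTSeq is not given in the sources used here. The signal values deposited are these counts divided by DESeq2 1.40.2 size factors within each table. Multiplied back, 100% of the values gave whole reads (tolerance 0.001). Of the tables, 10 were used and 9 were not. The deposited columns of fold changes and p-values of the authors were not used.

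Genes were filtered by filterByExpr of edgeR 4.0.16 on recovered reads and tested with limma 3.58.1 (lmFit, eBayes with trend) in R 4.3.3. Interactions used median-ratio size factors of 12 libraries. The block was an alternative, since the study's methods name none. Libraries of the same number deviated from their group means together, with correlations of 0.129 to 0.668 in 10 comparisons, against at most 0.185 between different numbers, so that the numbers were taken to pair the samples. The lowest correlation within a number thus lay below the highest between different numbers. Nothing says that the 3 experiments came from separate litters, and p-values measure the spread between these cultures. Other alternatives were DESeq2 1.42.0, edgeR, TMM scaling, no filter, a pseudocount of 0.1, the spread of 30 libraries, and each library left out. The genes named are the 10 members, genes of the other lists that were called, up to 6 per list and comparison, and the 5 most like *Srebf1* and the members' mean. *Scd2*, *Srebf2*, *Insig1*, *Nfya*, *Thrsp*, *Gfap*, *Aqp4*, *Pdgfra*, *Sox10*, *Rbfox3*, *Gad1* and *Syt1* where not called were named after their values were seen. An item of the lists is not reported here. The members and lists were chosen with earlier results of these data known. On simulated data for DMF at 4 h (14085 genes, 200 changed by a log2 of 1), limma recovered 98% of the changed genes, and 11 of its 207 calls were false. The changed genes were drawn from those with a mean above 200 reads, and no deviation shared by a replicate number was simulated. Motifs were searched on both strands of RefSeq promoters. Plots were drawn with matplotlib 3.10.9.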

Additional observations from a re-analysis of the deposited data

Results flagged for a closer look

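The effect of DMF differed between 24 and 4 h by the test of the interaction for 3 of the 10 genes. The difference in log2FC was 1.92 for *Srebf1*, 0.89 for *Fasn* and 0.92 for *Pnpla3* (limma, adjusted p = 0.00251, 0.0243 and 0.0165). For *Srebf1* and *Pnpla3* the libraries of all 3 experiments lay below DMSO at 4 h and above DMSO at 24 h, whereas *Fasn* was lower than DMSO in 2 of 3 experiments at 4 h. By the same test 5 of 5 genes of dividing cells and *Cspg4* of the oligodendrocyte lineage were lower (log2 difference -1.13 for *Cspg4*; limma, adjusted p = 0.00578). *Gfap* was higher with the block alone (1.23; limma, adjusted p = 0.193 without and 0.000135 with the block). *Aqp4*, *Pdgfra*, *Sox10*, *Rbfox3* and *Syt1* were lower with the block alone, by log2 differences of -0.65, -0.92, -0.82, -0.42 and -0.33 (limma with the block, adjusted p from 0.00808 to 0.0252). Over all genes, 4.12% were called without and 13.2% with the block. The part of these cells in the 3 differences was not tested.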

How the results depend on the processing

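TMM scaling, a pseudocount of 0.1, no filter on low counts and edgeR's quasi-likelihood test kept the direction and the side of the threshold of all 120 gene results (10 genes in 12 comparisons), and 0 results reversed under any alternative. With the replicate block, 24 of the 120 results came to pass the threshold and 0 were lost. Counts of genes called with the block were 3 for DMF and 4 for CBD at 4 h, 7 for DMF and 2 for CBD at 24 h, 9 for DMF at 24 against 4 h, 3 and 7 for DMF against MMF at 4 and 24 h, 5 for the DMF and 1 for the CBD difference between times. EdgeR with the block, added after the data were seen, gave the same counts except 4 for DMF at 4 h. DESeq2 gave 1 for DMF at 4 h, 6 for DMF and 2 for CBD at 24 h, 5 for DMF at 24 against 4 h and 4 for the DMF difference between times. With the spread of all 30 libraries there were 2 for DMF at 24 h and 2 for CBD at 24 h. For CBD at 24 h that setting raised the calls over all genes from 16 to 425. The cause of these differences was not tested.

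Leaving out 1 library gave 3 to 7 genes for DMF at 24 h, 3 to 6 for DMF against MMF at 24 h, 4 to 6 for DMF at 24 against 4 h and 1 to 4 for the DMF difference between times, and 0 to 0 in the other 8 comparisons. The count of 3 for DMF at 24 h arose when any 1 DMSO library or the second DMF library was left out, and for DMF against MMF without replicate 1 or 2 of either drug. *Srebf1*, *Fasn* and *Scd* were called in each of these fits of both comparisons. Over all genes, the calls for DMF at 4 h ranged from 437 without the filter to 3274 with the block, and from 28 to 154 with 1 library left out. For DMF at 24 h they ranged from 525 to 1822, and from 141 to 1165 with 1 left out. With the block, they rose from 0 to 205 for DMSO between times, from 1 to 195 for MMF at 24 h, from 1 to 330 for CBD at 4 h, from 16 to 71 for CBD at 24 h, from 229 to 3347 and from 506 to 1740 for DMF against MMF at 4 and 24 h, from 2216 to 4616 for DMF at 24 against 4 h, and from 594 to 1904 for the DMF difference between times. The block changed no call of the 10 genes other than those given beside the results.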

Other observations

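Correlations among the 10 genes were computed over the 30 libraries once the mean of each replicate number was removed, and are given as a description, since the libraries share experiments. The correlation of log2 levels over the 45 pairs of genes had a median of 0.68 (0.58 over the 27 libraries without DMF at 24 h) and ranged from -0.35 (*Acly* with *Fads1*) to 0.90 (*Fasn* with *Acaca*). Several pairs rested on the 3 libraries with DMF at 24 h. Without them *Srebf1* with *Fasn* went from 0.78 to 0.24, *Srebf1* with *Acaca* from 0.63 to -0.04 and *Fasn* with *Fads1* from 0.70 to 0.07. *Acly* went the other way, from -0.03 to 0.83 with *Fasn* and from 0.10 to 0.69 with *Pnpla3*. Outside the lists, the genes most like *Srebf1* among 13883 were *Inpp5j*, *Spata2L*, *Azin2*, *Adam19* and *Blmh* (r from 0.87 to 0.83, and from 0.51 to 0.78 without DMF at 24 h). Those most like the mean of the 10 genes were *Plekhd1*, *Adam19*, *Tmem35a*, *Ppm1e* and *Pnma8c* (r from 0.93 to 0.85, and from 0.71 to 0.85 without DMF at 24 h).

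*Thrsp*, a lipogenic gene of the wider list, had with CBD at 24 h 29.4 ± 17.4 (SD) against 219 ± 99.7 normalized counts and missed the threshold (log2FC -2.94; limma, adjusted p = 0.124 without and 0.0538 with the block). With MMF at 24 h, *Me1* had a log2FC of 0.46 (limma, adjusted p = 0.952 without and 4.54e-05 with the block), against the same DMSO libraries as DMF. Both genes were picked out after their values were seen.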
